A study of Mus musculus with 4 samples.

Results

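The proteasome genes of 4T1-T cells were examined in an RNA sequencing study of asparagine supply. The set held 46 of the 23481 genes in the count table, chosen by symbol alone as every Psm gene of the letters a to g followed by a number. The inducible catalytic subunits Psmb8, Psmb9 and Psmb10 and symbols of pseudogenes were left out of the set. It covered the alpha and beta rings of the core particle, the base and lid of the regulatory particle, activators, an inhibitor and assembly chaperones. The pattern also matched Psmc3ip, whose product is a meiotic recombination factor named for an interaction with a proteasome subunit, and it is described on its own. 4T1-T cells descend from 4T1, a line from a mouse mammary tumour. In all samples Asns, the gene for the enzyme that makes asparagine, had been silenced, and the sources used here do not name the construct or say whether the cells were 1 clone. One group of 2 libraries came from cells grown in DMEM without asparagine and the other of 2 from cells grown in DMEM with it, and each pair was lettered A and B. They are called the deprived and the supplied libraries here, and a value given without library A or B is one with that deprived library left out. The comparison asked whether the supply of asparagine altered the level of each transcript.

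The proteasome degrades proteins that carry chains of ubiquitin. Its barrel-shaped core particle stacks rings of alpha and beta subunits, and 3 of the beta subunits hold the proteolytic sites inside the barrel. The regulatory particle binds the ends of the barrel: its base unfolds the substrate with a ring of ATPases, and its lid removes the ubiquitin chain. Proteasomes recycle amino acids, and their genes are known to be induced together, chiefly by the transcription factor encoded by Nfe2l1, when degradation falls short.

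Reads assigned to genes numbered between 17977552 and 30260582 per library, of which between 78006 and 143248 fell on the proteasome set, or 0.434% to 0.483% of gene reads. Asns, the silenced gene, had 75.0 and 89.2 CPM (a gene's reads as a share of the gene reads of its library, scaled between libraries) in deprived libraries A and B and 102.7 and 101.3 CPM in supplied A and B, and its log2 fold change of -0.31 missed the test (adjusted p = 0.235 by edgeR, or -0.19 without library A). No library of cells with intact Asns was analysed here, so these values do not check the silencing. Deprived library A stood apart from the rest. It had 56.6% of all reads outside annotated features and 3.53% of gene reads on the ribosomal RNA precursor Rn45s, against at most 49.3% and 1.66% in the other 3 libraries. Its Spearman correlation with the other libraries across genes was 0.985 to 0.991, against 0.992 to 0.998 among those 3. For named genes whose fold change turned, moved by over 1.5 times or gained a call when this library was left out, that value is given beside the one from all libraries, and the part of the reads outside features and of Rn45s in those results was not tested. The epithelial markers Krt8, Krt18, Epcam and Cdh1 lay between 37.3 and 414 CPM in every library. Of 19 markers of leukocytes, endothelium, fibroblasts, fat and muscle, 17 stayed at or below 1.04 CPM in every library, the exceptions being Cd68 and Pdgfra. Ptprc, which defines leukocytes, reached at most 0.467 CPM, and Cd3e of T cells and Adipoq of fat were at 0 throughout. Summed, the epithelial markers had between 888 and 903 CPM in the deprived and between 744 and 823 CPM in the supplied libraries. Epcam and Cdh1 were higher in both deprived libraries than in both supplied ones, and Krt18 overlapped. Krt8 went the other way, with 215 and 199 CPM when deprived and 216 and 237 CPM when supplied. Epcam was called higher and Pdgfra lower in the deprived libraries. Postn, another fibroblast marker, had 1.04 and 0.850 CPM when deprived and 0.126 and 0.200 CPM when supplied. The part of such marker levels in the results was not tested.

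No proteasome gene passed the test for a difference between the groups. Of the 46 genes, 44 had enough reads to be tested, and 0 of them had an adjusted p below the threshold of 0.05 in edgeR's quasi-likelihood test, while 1.85% of all 12843 genes tested did. DESeq2 and limma-voom also called 0 of the 44. At an unadjusted p under 0.05 there were 3 members, Psmb3, Psmc3 and Psmg4, or 6.82%, beside 18.1% of all genes. The log2 fold changes (positive where the level without asparagine was higher) ran from -0.36 to 0.75 with a median of 0.07, beside a median of 0.01 over all genes, and 24 of the 44 were above 0. The 95% interval of the fold change lay within 2-fold in either direction for 43 of the 44 members, the exception being Psmg4, and within 1.5-fold for 31 of them. Over all genes the intervals lay within those bounds for 80.9% and 52.0%. These intervals are for single genes, not adjusted for their number, and they rest on 2 libraries a group with a common estimate of spread. CPM measures a share of the gene reads, so a change in the mix of cells and a change in RNA per cell cannot be told apart.

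**Figure D1:**
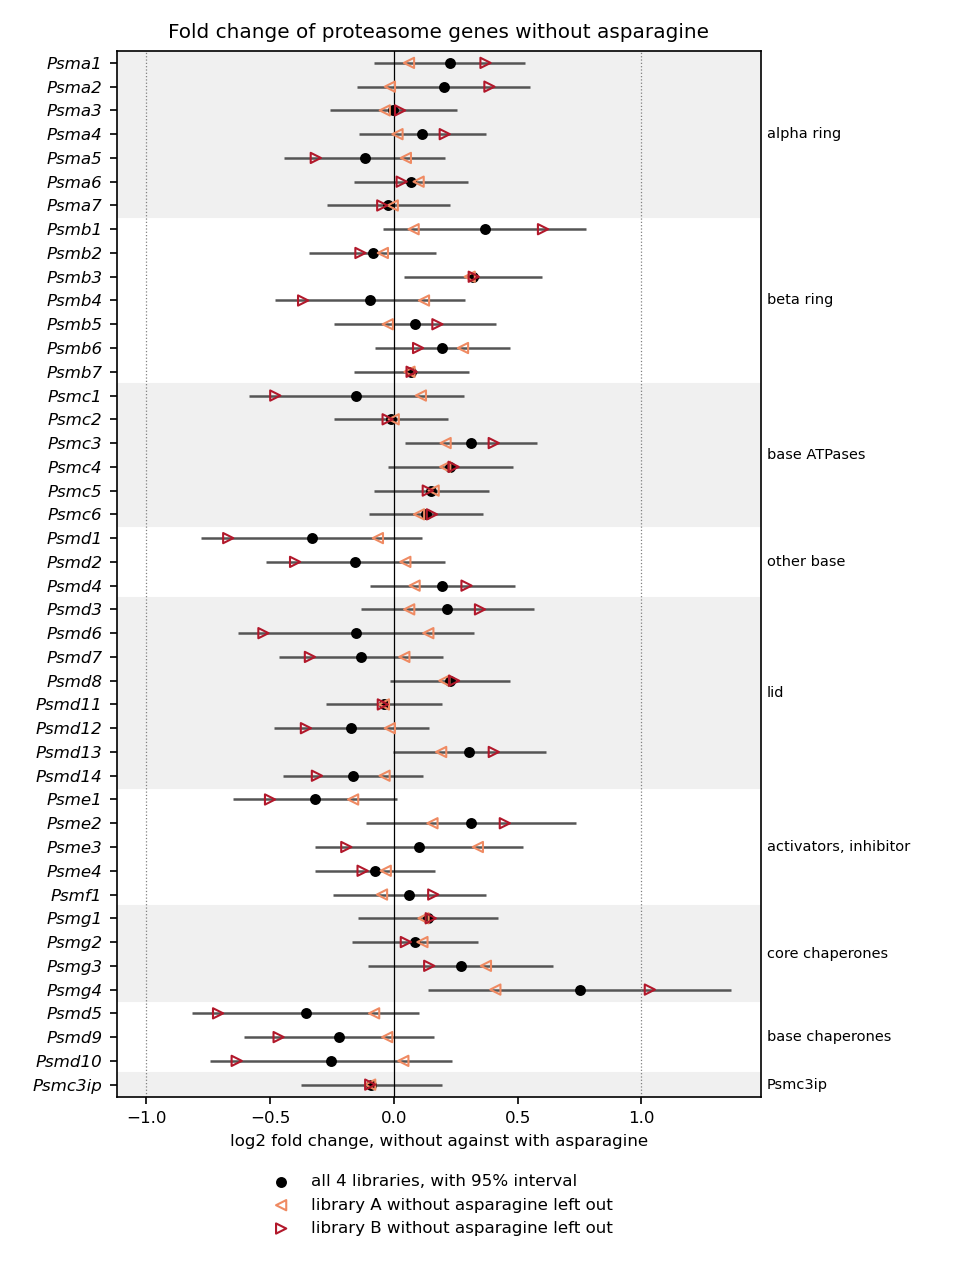
Log2 fold change without against with asparagine for the 44 tested genes, grouped by role; black points and bars are the edgeR estimate and its 95% interval, open triangles the estimates with a library without asparagine left out, and dotted lines mark 2-fold. Black points lie between -0.36 and 0.75, and the 2 triangles of many genes fall on opposite sides of the black point. An estimate from both deprived libraries usually lies between those from each, so that placing is no trait of these genes.

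In 18 of the 44 genes both deprived libraries lay above both supplied ones, or 40.9%, where 26.1% of all genes did so. The reverse order held for 7, or 15.9%, where 26.4% of all genes did so. The groups overlapped in the other 19. In 7 of these 19, or 15.9% of the 44, deprived library A lay below both supplied libraries and deprived library B above both. In no member was it the other way round. Over all genes the first pattern held for 10.1% and the second for 9.50%.

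**Figure D2:**
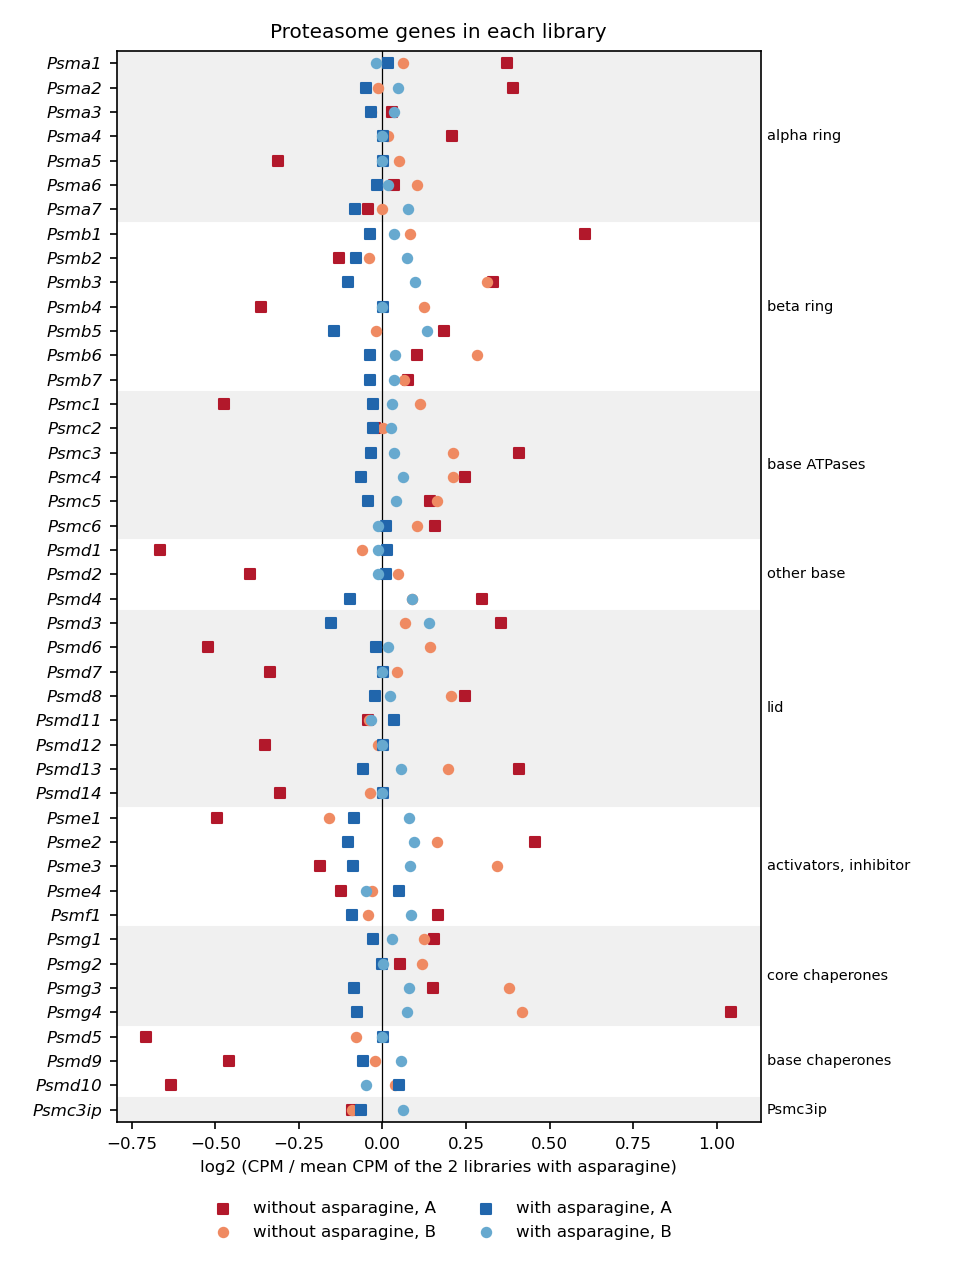
Level of each of the 44 tested genes in the 4 libraries, as the log2 ratio of its CPM to the mean CPM of the 2 libraries with asparagine; squares are libraries A and circles libraries B, red without and blue with asparagine. Dark red squares (deprived library A) sit farthest from 0 on both sides, and in the median gene by 0.303, against 0.0802 for deprived library B. Over all tested genes these medians were 0.278 and 0.158.

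The alpha subunits form the outer rings of the core particle and the gate through which substrates enter. Of 7 tested, 4 had a positive and 3 a negative fold change, and the median was 0.07, or 0.015 without library A. Psma1 had 94.3 and 76.0 CPM in deprived libraries A and B, and 73.7 and 71.9 CPM in supplied A and B. The groups did not overlap, but most of the distance came from deprived library A. Its log2 fold change came to 0.23 ± 0.13 (SE, with an adjusted p of 0.395 by edgeR), and 0.06 without that library. Psma5 lay at the other end, with 67.6 and 86.9 CPM when deprived and 84.1 and 83.8 CPM when supplied. Library A was the lowest of the 4 and library B the highest, and the log2 fold change was -0.12 ± 0.14 (adjusted p = 0.673, or 0.05 without library A). Psma7, the most abundant alpha transcript per length, had 196 and 201 CPM when deprived and 191 and 213 CPM when supplied, so its groups overlapped. The other log2 fold changes were 0.20 for Psma2, 0.12 for Psma4, 0.07 for Psma6, -0.02 for Psma7 and -0.0025 for Psma3. Without library A they were -0.016 for Psma2, 0.015 for Psma4, -0.0045 for Psma7 and -0.037 for Psma3. Psma8, which replaces an alpha subunit in male germ cells, had no read in any library.

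The beta subunits form the inner rings. Psmb5, Psmb6 and Psmb7 encode the catalytic subunits of the standard proteasome, with chymotrypsin-like, caspase-like and trypsin-like activity. Psmb5 had 41.3 and 35.9 CPM in deprived libraries A and B and 32.9 and 39.9 CPM when supplied. The groups overlapped, and the log2 fold change came to 0.08 ± 0.14 (SE, with an adjusted p of 0.775, 95% interval -0.24 to 0.41), or -0.025 without library A. Psmb6 had 37.4 and 42.4 CPM when deprived and 33.9 and 35.7 CPM when supplied. Both deprived libraries were the higher, by 0.20 ± 0.12 on the log2 scale (adjusted p = 0.405, interval -0.08 to 0.47). Without library A the log2 fold change of Psmb6 was 0.28, and it was called (adjusted p = 0.0419). Psmb7 had 129 and 128 CPM when deprived and 119 and 125 CPM when supplied, a log2 fold change of 0.07 ± 0.10 (adjusted p = 0.729, interval -0.16 to 0.30). In the GENCODE M21 annotation of mm10, Psmb5 lies on the minus strand at chr14:54614119-54618022, Psmb6 on the plus strand at chr11:70525367-70527858 and Psmb7 on the minus strand at chr2:38588036-38644087. For all 3 catalytic subunits the interval with all libraries ended below 1.5-fold on either side.

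Among the structural beta subunits, Psmb1 had the largest fold change and Psmb4 the smallest. Psmb1 had 85.7 CPM in deprived library A, and 59.6, 54.9 and 57.7 CPM in deprived library B and both supplied libraries. One library thus stood above 3 that lay close together, and the log2 fold change of 0.37 ± 0.17 (adjusted p = 0.320) became 0.08 without it. Psmb4 had 62.6 and 87.8 CPM when deprived and 80.6 and 80.5 CPM when supplied, so library A was lowest and library B highest. Its log2 fold change was -0.10 ± 0.16 (adjusted p = 0.776), or 0.12 without library A. Psmb3 differed from both in that deprived libraries A and B gave nearly the same value, 38.3 and 37.8 CPM, above 28.3 and 32.6 CPM when supplied. Its log2 fold change was 0.32 ± 0.12 with all libraries (adjusted p = 0.228) and 0.31 without library A (adjusted p = 0.0277). Psmb2 had a log2 fold change of -0.09, or -0.04 without library A. Psmb11, the catalytic subunit of thymic epithelium, had between 2 and 8 reads a library and was not tested.

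The promoters of 38 of the 46 genes were found in a RefSeq table (GRCm38.p6), as windows from 250 bases before to 50 after each start site. They were searched on both strands for TGACNNNGC, the core of the antioxidant response element that the factors encoded by Nfe2l1 and Nfe2l2 bind, and for the CCAAT box. The element core was found for 6 of the 38 genes, including the catalytic subunits Psmb5 and Psmb6, and in 14.6% of the 41 windows of these genes, beside 12.4% of the 32851 windows in the table. Psma8, Psmb1, Psmb2, Psmb7, Psmc3, Psmd3, Psmd7 and Psmg2 had no window and were not searched. The CCAAT box was in 34.1% of the member windows and 37.4% of all. A match is a run of letters, not a measured binding site. These shares of members are near those of all windows. The sequences with the core are shown to let the letters of the 6 matches be compared. They are written along the gene's own strand, 5′ to 3′, within these windows and up to the start site or the end of the match, with the matched letters in capitals.

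Psmb5, chr14:54618009-54618067, minus strand: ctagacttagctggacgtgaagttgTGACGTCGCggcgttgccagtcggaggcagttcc
Psmb6, chr11:70525323-70525356, plus strand: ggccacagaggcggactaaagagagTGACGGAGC
Psmd9, chr5:123228134-123228189, plus strand: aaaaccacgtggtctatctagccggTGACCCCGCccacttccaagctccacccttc
Psmc6, chr14:45329574-45329630, plus strand: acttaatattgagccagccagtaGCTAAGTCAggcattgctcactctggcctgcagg
Psmd12, chr11:107479278-107479314, plus strand: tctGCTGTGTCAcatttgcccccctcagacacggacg
Psme4, chr11:30771743-30771776, plus strand: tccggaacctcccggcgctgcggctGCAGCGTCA

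In Psmb5, Psmb6 and Psmd9 the core reads along the gene and begins 47, 9 and 31 bases before the start site. In Psmc6, Psmd12 and Psme4 it lies on the other strand, so the capitals show its reverse complement. The log2 fold changes of the 6 genes ran from -0.22 to 0.20 with a median of 0.00, and 0 of them were called.

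The base ATPases thread substrates into the core. Of the 6 tested, 4 had a positive fold change, in each of which both deprived libraries lay above both supplied ones. That order held for 26.1% of all genes. Psmc3 had 101 and 87.8 CPM in deprived libraries A and B and 74.0 and 77.7 CPM when supplied. Its log2 fold change came to 0.31 ± 0.11 (SE, with an adjusted p of 0.219), and 0.21 without library A (adjusted p = 0.0743). In the annotation exons of Slc39a13 lie opposite those of Psmc3. How reads over bases shared by both genes were counted depends on the strand setting, which is not given. Psmc4, Psmc5 and Psmc6 had log2 fold changes of 0.23, 0.15 and 0.13, with deprived libraries A and B close together. For Psmc4 these were 50.4 and 49.2 CPM, against 40.6 and 44.3 CPM when supplied. Psmc2 had 177, 179, 176 and 183 CPM in deprived libraries A and B and supplied libraries A and B (log2 fold change -0.01, or -0.00068 without library A). Psmc1 had 131 CPM in deprived library A, below the 197, 179 and 186 CPM of deprived library B and both supplied libraries. Its log2 fold change of -0.15 ± 0.18 (adjusted p = 0.687) turned to 0.11 without library A.

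The other base subunits are the scaffolds Psmd1 and Psmd2, which dock ubiquitin carriers, and the ubiquitin receptor Psmd4. Psmd1 was the most abundant proteasome transcript in CPM. It had 418 CPM in deprived library A, and 635, 670 and 657 CPM in deprived library B and both supplied libraries. Library A alone was low, and the log2 fold change came to -0.33 ± 0.19 (SE, with an adjusted p of 0.394) with it and -0.06 without it. Psmd2 was also lowest in that library, with 93.4 CPM in deprived library A and between 122 and 127 CPM in the other 3 (log2 fold change -0.16, or 0.05 without library A). Psmd4 had 71.4 and 61.7 CPM when deprived and 54.3 and 61.8 CPM when supplied, with overlapping groups. Its log2 fold change was 0.20, or 0.08 without library A.

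The lid holds Psmd14, the metalloprotease that cuts off the ubiquitin chain, and scaffold subunits around it. Psmd14 had 131 CPM in deprived library A and 159, 163 and 162 CPM in deprived library B and both supplied libraries (log2 fold change -0.16 ± 0.12 SE, adjusted p = 0.495, or -0.04 without library A). Psmd6, Psmd7 and Psmd12 also had their lowest value in deprived library A, at 76.5, 206 and 249 CPM, where the other libraries had at least 109, 259.8 and 314 CPM. Their log2 fold changes were -0.15, -0.13 and -0.17, and 0.14, 0.04 and -0.02 without that library. Psmd13 had the largest fold change of the base and lid outside the ATPases. It had 26.9 and 23.2 CPM when deprived and 19.5 and 21.1 CPM when supplied, a log2 fold change of 0.30 ± 0.13 (adjusted p = 0.282, or 0.19 without library A). Exons of Sirt3 lie opposite those of Psmd13. Psmd8 had 48.7 and 47.3 CPM when deprived and 40.4 and 41.7 CPM when supplied (log2 fold change 0.23), one of the members whose libraries within each group lay close together. Psmd3 had a log2 fold change of 0.22, or 0.06 without library A, and Psmd11 one of -0.04.

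The activators open the core particle without the regulatory particle. Psme1 and Psme2 encode the 2 subunits of the interferon-inducible activator ring, and their fold changes were of opposite sign. Psme1 had 45.9 and 57.9 CPM in deprived libraries A and B and 61.1 and 68.4 CPM when supplied, a log2 fold change of -0.32 ± 0.14 (SE, with an adjusted p of 0.295). Both deprived libraries were the lower, and leaving out library A brought the value to -0.16. The 2 genes lie close together on opposite strands, Psme1 at chr14:55578123-55581529 on the plus strand and Psme2 at chr14:55587441-55591113 on the minus strand. Exons of Emc9 lie opposite those of Psme1. Psme2 had 9.05 and 7.38 CPM when deprived and 6.14 and 7.04 CPM when supplied, so both were the higher, at a log2 fold change of 0.31 ± 0.18 (adjusted p = 0.398), or 0.16 without library A. Psme3, the nuclear activator, had 209 and 302 CPM when deprived and 224 and 253 CPM when supplied. The deprived libraries enclosed the supplied ones, and its log2 fold change was 0.10 ± 0.18 with all libraries, 0.34 without library A (adjusted p = 1.65e-05) and -0.19 without library B (adjusted p = 0.0204). Psme4, which encodes a large single-chain activator, and Psmf1, an inhibitor of the core particle, had log2 fold changes of -0.08 and 0.06, or -0.03 and -0.05 without library A. Of the inducible catalytic subunits outside the set, Psmb8 had 9.76 and 11.4 CPM when deprived and 17.7 and 16.7 CPM when supplied (log2 fold change -0.70 ± 0.14, adjusted p = 0.0684), and without library A it was called (-0.59, adjusted p = 0.000714). Psmb9 and Psmb10 had log2 fold changes of -0.58 and 0.33 (adjusted p = 0.420 and 0.318), and that of Psmb9 was -0.22 without library A.

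Assembly chaperones build the proteasome and leave it when it is complete. The 4 chaperones of the core particle, Psmg1 to Psmg4, all had both deprived libraries above both supplied ones, and none was called. Of all genes tested, 26.1% had that order. Psmg4, the rarest of them in CPM, had 6.21 and 4.03 CPM when deprived and 2.86 and 3.17 CPM when supplied, from between 68 and 114 reads. It had the largest log2 fold change of all members, 0.75 ± 0.26 (SE, adjusted p = 0.203), with an interval of 0.14 to 1.36. The size depended on library A, since the log2 fold change was 0.41 without it (adjusted p = 0.296) and 1.03 without library B (adjusted p = 6.83e-05). Psmg4 was called when genes with few reads were not filtered out (adjusted p = 0.0226). Psmg3 had 9.70 and 11.4 CPM when deprived and 8.24 and 9.24 CPM when supplied (log2 fold change 0.27). Psmg1 and Psmg2, which form the first chaperone pair, had log2 fold changes of 0.14 and 0.09.

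The 3 chaperones of the base, Psmd5, Psmd9 and Psmd10, all had fold changes below 0. Psmd5 had 75.9 CPM in deprived library A, and 117, 124 and 124 CPM in deprived library B and both supplied libraries. Its log2 fold change came to -0.36 ± 0.19 (SE, with an adjusted p of 0.376), the smallest of all members, and -0.08 without library A. Psmd10, also known as gankyrin, had 28.7 CPM in deprived library A and 45.7, 46.0 and 42.9 CPM in deprived library B and supplied libraries A and B. Its log2 fold change of -0.25 ± 0.21 (adjusted p = 0.541) was 0.04 without library A. Psmd9 had 19.8 CPM in that library and between 26.1 and 28.3 CPM in the rest (log2 fold change -0.22, or -0.03 without library A). In all 3 base chaperones, then, 3 libraries lay together and 1 lay below. Psmc3ip, the member outside the proteasome, had 19.6 and 19.5 CPM when deprived and 19.9 and 21.7 CPM when supplied (log2 fold change -0.09 ± 0.12, adjusted p = 0.712).

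Summed over its members, the alpha ring had 803 and 773 CPM in deprived libraries A and B and 740 and 770 CPM when supplied. The beta ring had 484 and 487 CPM when deprived and 443 and 475 CPM when supplied. In both rings the groups did not overlap, and the ratio of their means was 1.04 for alpha and 1.06 for beta. The lid had 920 CPM in deprived library A and between 1076 and 1102 CPM in the other 3. The base scaffolds and receptor had 583 CPM in deprived library A and between 824 and 848 CPM in the rest, so the 3 other libraries differed little while library A was low. The core chaperones had 67.4 and 68.0 CPM when deprived and 59.2 and 61.2 CPM when supplied, and the base chaperones 124 and 190 CPM when deprived and 196 and 195 CPM when supplied. All 46 genes together had 4564 ± 443 CPM when deprived and 4720 ± 83.6 CPM when supplied (SD, n = 2 each), and the lower mean came from library A, at 4251 CPM, since library B had 4877 CPM.

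**Figure D3:**
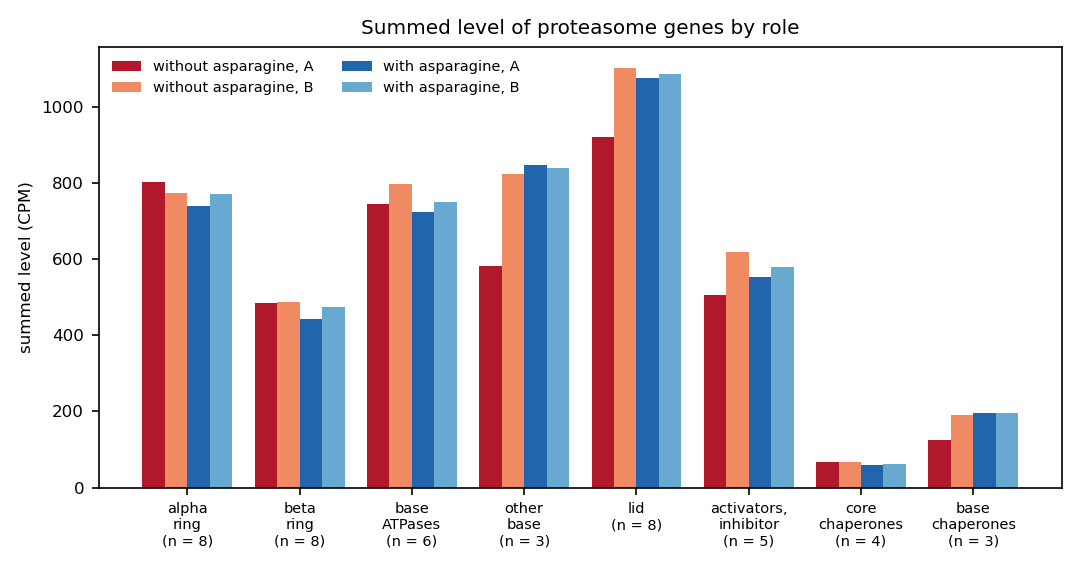
Summed CPM of the genes of each role in each library, with the number of genes under each role; bars start at 0, red without and blue with asparagine, dark for library A and light for library B. Deprived library A is below the other 3 libraries in the other base subunits (583 CPM), the lid (920 CPM), the activators and the base chaperones (124 CPM), and not in the rings.

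The 2 deprived libraries differed from each other more than did the supplied ones. The median size of the log2 ratio of library A to library B was 0.213 over the 44 members without asparagine and 0.0725 with it, beside 0.225 and 0.0989 over all genes. Supplied library A was the lowest of the 4 libraries in 23 members and the highest in 7, together 68.2%, beside 44.3% of all genes. Deprived library A was the highest in 18 members and the lowest in 17, together 79.5%. It was an extreme for 71.8% of all genes. With library A left out, 3 of the 44 members were called, Psmb3, Psmb6 and Psme3, all higher without asparagine. That is 6.82%, where 15.6% of all genes were called in that fit. With library B left out, 13 members were called higher and 14 lower, or 61.4%, where 40.4% of all genes were called. With supplied library A or supplied library B left out, 0 members were called, where 58 and 48 genes of all those tested were. In each of these 4 fits the lone library of its group takes its spread from the pair in the other.

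Apart from the ranks of Psmd1 and Psmg4 in CPM, levels were compared between subunits per length. The measure was CPM per kilobase of the principal transcript in GENCODE M21 (build mm10). The scale depends on the transcript chosen. Within the alpha ring the mean level with asparagine ran from 11.6 CPM per kilobase for Psma3 to 221 for Psma7, with a median of 67.8. The low value of Psma3 goes with a long transcript model of 2846 bases, and on its shortest coding model of 859 bases it was 38.5. Beta subunits ran from 32.0 CPM per kilobase for Psmb1 to 114 for Psmb2, with a median of 43.6, and the ATPases from 29.5 for Psmc4 to 115 for Psmc1, with a median of 78.1. The 2 scaffolds of the base differed, with 213 for Psmd1 and 41.5 for Psmd2. Core chaperones had a median of 13.0 CPM per kilobase and base chaperones one of 28.2, below the medians of the rings and of the ATPases. In the annotation 10 of the 46 genes had exons opposite exons of another gene, namely Psma4, Psma5, Psmb7, Psmc3, Psmd1, Psmd3, Psmd9, Psmd13, Psme1 and Psmc3ip. For Psmb5, Psmd1 and Psmg3 an annotated gene of the same strand shares exonic bases with them.

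**Figure D4:**
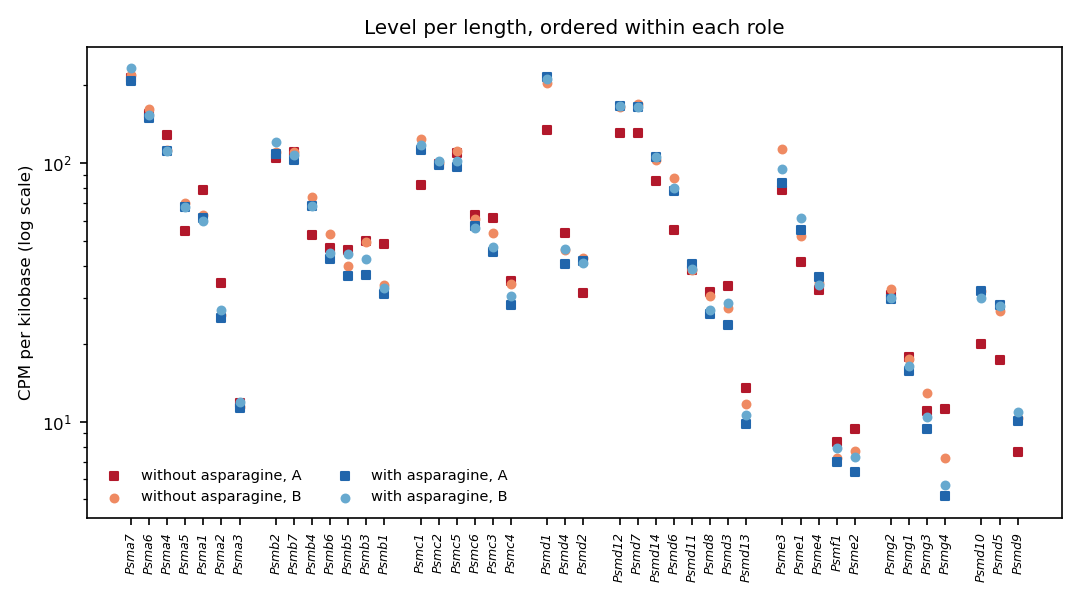
CPM per kilobase of the principal transcript (log axis) for 43 proteasome genes in the 4 libraries, ordered by level within each role; squares are libraries A and circles libraries B, red without and blue with asparagine. The order of subunits within a role spans a wider range than the 4 libraries of any gene, as from 11.6 to 221 CPM per kilobase in the alpha ring.

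Genes that work with the proteasome were read from 5 lists, and 0 of their 60 tested members were called. DESeq2 and limma-voom gave the same count, and 11 of the 60 had an unadjusted p under 0.05, or 18.3%, beside 18.1% of all genes. Without library A 12 of these genes were called and without library B 31, in fits that called 15.6% and 40.4% of all genes. Among 16 partners and remaining subunits, 7 had a positive fold change and the median was -0.01, or 0.01 without library A. Adrm1, a ubiquitin receptor of the base, had 37.4 and 38.2 CPM in deprived libraries A and B and 28.2 and 30.1 CPM when supplied. The groups were apart and the libraries within each were close, at a log2 fold change of 0.37 ± 0.11 (SE, with an adjusted p of 0.156). Without library A it was 0.38, and Adrm1 was called (adjusted p = 0.00353). Pomp, the maturation factor of the core particle, had 203 CPM in deprived library A and 154, 144 and 158 CPM in the other 3 (log2 fold change 0.24, adjusted p = 0.425, or 0.02 without library A). Usp14, a deubiquitinase of the regulatory particle, had 160 and 175 CPM when deprived and 166 and 159 CPM when supplied (log2 fold change 0.04, or 0.10 without library A).

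Of 12 regulators, 6 had a positive and 6 a negative fold change, with a median of 0.00, or -0.05 without library A. Nfe2l1, the main activator of proteasome genes, had 183 and 249 CPM in deprived libraries A and B and 212 and 228 CPM when supplied. Its groups overlapped, and the log2 fold change came to -0.03 ± 0.15 (SE, with an adjusted p of 0.945, 95% interval -0.39 to 0.34). It was 0.18 without library A (adjusted p = 0.0657) and -0.27 without library B (adjusted p = 0.000929), so its sign turned with the library left out. These are transcript levels, and the factor is known to be controlled largely by its own cleavage and degradation. Nfe2l2, the related factor of the oxidative stress response, had 155 and 158 CPM when deprived and 186 and 180 CPM when supplied (log2 fold change -0.23 ± 0.10, adjusted p = 0.280). Without library A it was -0.22, and Nfe2l2 was called (adjusted p = 0.0272).

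Of 6 ubiquitin and E1 enzyme genes, 4 had a positive fold change. The list's median was 0.36, or 0.11 without library A. Of 13 genes of the p97 segregase, which pulls ubiquitinated proteins out of membranes and complexes, 3 had a positive fold change. The median of these genes was -0.09, or -0.02 without library A. Ubxn7, an adaptor of p97, had 183 and 202 CPM when deprived and 245 and 240 CPM when supplied (log2 fold change -0.33 ± 0.10, adjusted p = 0.175), and without library A it was called (-0.27, adjusted p = 0.00256). Of 13 tested genes of the heat shock response, 10 had a positive fold change, where 51.4% of all genes did, and the median was 0.13. Hsph1 was 1 of the 3 that went the other way, with 809 and 900 CPM when deprived and 1123 and 1173 CPM when supplied. Its log2 fold change was -0.43 ± 0.11 (adjusted p = 0.128 by edgeR), or -0.35 without library A. Hspa1b, an inducible member of the HSP70 family, had 25.02 and 20.7 CPM when deprived and 15.4 and 15.2 CPM when supplied (log2 fold change 0.58 ± 0.14, adjusted p = 0.110). Without library A Hspa1b was called (0.43, adjusted p = 0.00942). Its near-identical copy Hspa1a was counted apart, at a log2 fold change of 0.68 ± 0.20 (adjusted p = 0.163 by edgeR). The value for Hspa1a was 0.75 without library A. Reads that match both copies may be counted with either or left out.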

How the data were processed

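Total RNA was prepared with Qiagen RNAeasy and NuGEN Ovation RNAseq V2, per the labels' protocols. The submitters' processing notes name Bowtie2, HTSeq and build mm10. For versions, annotation and strand setting, nothing is given in the sources used here. The authors deposited raw counts of reads per gene symbol, 1 column per library, assigned to samples by the descriptions in the labels. HTSeq's 5 summary rows held between 60.1% and 70.0% of reads and entered neither library sizes nor tests. Bowtie2 alone does not split reads over introns, and whether a splice-aware step was used is not stated, so counts of genes with many short exons may be low.

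From the counts, 12843 genes passed filterByExpr (minimum count 10, minimum total 15), were scaled by TMM, and the test was that of edgeR 4.0.16 (quasi-likelihood F test, without against with asparagine), with Benjamini-Hochberg adjustment over all genes tested. The SE is the size of the log2 fold change divided by the square root of F, and 95% intervals use the total degrees of freedom of that test. Alternatives used DESeq2 1.42.0, limma 3.58.1, other scalings and filters, a block, and each library left out. The test was checked on simulated data with a common spread for all libraries, so not with a library that stood apart. No label speaks of separate cultures, and the p-values then cover a spread between samples that may be technical. Members and gene lists were chosen with earlier results of these data known. All members are named. Values of all 4 libraries are given for the largest and smallest fold change in each role (with the base outside the ATPases and the lid as 1 role, activators and inhibitor as 1, and all assembly chaperones as 1) and for the catalytic subunits, and Adrm1, Pomp, Usp14 and Nfe2l1 were always given. Of each further list the gene with the smallest p is given, except in 1 list, where it is not reported here. Other genes with 4 values (Psma7, Psmb3, Psmc2, Psmc4, Psmd4, Psmd8, Psmd10, Psmd14, Psme3, Psmg3 and Hsph1) were chosen after their values were seen. The positions are those of GENCODE M21 on mm10. No column of the table was without a sample.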

Additional observations from a re-analysis of the deposited data

How the results depend on the processing

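With 2 libraries a group and 1 library that stands apart, small differences could not be resolved, and the members' median SE was 0.13 on the log2 scale. The count of called members stayed at 0 with limma-voom, the DESeq2 Wald test, its size factors in edgeR, upper quartile scaling, the filter of 5 CPM in 2 libraries and without the 10 most abundant genes and Rn45s. It was 1 with no low-count filter (1 higher), which also tested 19828 genes in place of 12843. Leaving out each library gave between 0 and 27 called members, between 0 and 13 higher and between 0 and 14 lower. Among the genes of the 5 further lists, 0 were called with all libraries, 6 with no low-count filter, and between 0 and 31 with a library left out. The members' median log2 fold change was 0.07 and ran from 0.0039 to 0.12 over all alternatives. The letters A and B are not said to pair the samples. With the letter as a replicate block 0 members and 1 of the further genes were called, and 816 of all genes in place of 237, and same-lettered libraries deviated together with a correlation of 0.123 across genes. DESeq2 called 464 of all genes, and no low-count filter 1334. The cause of these shifts was not tested.

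Some members turned in sign, none of which was called with all libraries. With upper quartile scaling the log2 fold change was 0.046 for Psma3, 0.026 for Psma7, 0.038 for Psmc2 and 0.0075 for Psmd11, and for Psma3 it was 0.0056 with the filter of 5 CPM. With each library left out in turn it ran from -0.016 to 0.39 for Psma2, -0.038 to 0.029 for Psma3, -0.32 to 0.048 for Psma5, -0.10 to 0.056 for Psma7, -0.37 to 0.12 for Psmb4, -0.049 to 0.23 for Psmb5, -0.48 to 0.11 for Psmc1, -0.039 to 0.014 for Psmc2, -0.63 to 0.038 for Psmd10, -0.40 to 0.046 for Psmd2, -0.53 to 0.14 for Psmd6, -0.34 to 0.042 for Psmd7, -0.19 to 0.34 for Psme3 and -0.048 to 0.16 for Psmf1. Of these, with library B without asparagine left out, Psma2 was called higher and Psma5, Psmb4, Psmc1, Psmd2, Psmd6, Psmd7, Psmd10 and Psme3 lower, and Psme3 was called higher with library A left out.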
